A study of Mus musculus with 6 samples.

Results

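The DNA replication genes examined here were 40 genes chosen by name, of 54551 genes listed in each table. They encode the machinery that licenses replication origins, unwinds DNA, copies it and supplies nucleotides. All 40 were found once in every table, and all 40 passed the filter on low values (an FPKM over 1 in at least 3 libraries), as did 12495 genes in all. FPKM is the number of fragments scaled by gene length and by a scaling total for each library. RNA was sequenced from granulosa cells, the somatic cells of the ovarian follicle, of C57BL/6 mice aged 21 days. All mice, KO and WT, were given 5 IU of PMSG, which stimulates follicles to grow, for 48 h. Cells were taken 6 h after 5 IU of hCG, a gonadotropin that triggers ovulation. There were 3 libraries labelled Gm12840-/- (KO), for loss of the long noncoding RNA gene Gm12840, and 3 labelled wild type (WT). The labels do not say how the deletion was made or that libraries came from separate animals, so p-values measure the spread between these samples, which may be technical.

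Before S phase, the origin recognition complex, Cdc6 and Cdt1 load the MCM ring onto DNA, and geminin blocks Cdt1 so that origins fire once per cycle. Cdc45 and the GINS complex turn the ring into the active helicase, and polymerases copy DNA with the help of the PCNA clamp, its RFC loader and the RPA single-strand binding complex. Many of these genes are targets of E2F transcription factors. Granulosa cells divide rapidly in growing follicles and leave the cell cycle after the ovulatory surge. In bulk RNA, fewer cells in S phase and less RNA per cell cannot be told apart.

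The libraries did not sort by label. Gm12840 itself stood at 0.426, 0.611 and 1.45 FPKM in KO 1 to 3, against 1.83, 0.566 and 0.365 FPKM in WT 1 to 3. These levels rest on 5 to 14 reads per KO library and 5 to 17 reads per WT library, and the exact two-sided permutation test gave p = 0.9, where 0.1 is the smallest possible. Directions between the groups therefore rest on the labels. The first principal component of all tested genes held 83.3% of the variance and placed KO 3 (-55.0) beside WT 1 (-50.1) and WT 2 (-31.1). It placed KO 1 (23.3) and KO 2 (70.8) beside WT 3 (42.1). Whether KO 3 and WT 3 were exchanged was not tested, and an exchange would alter every KO to WT comparison given here. Mitochondrially encoded genes took 0.146% to 4.19% of the reads in KO libraries and 0.227% to 2.08% in WT libraries, with the lowest KO share in KO 3 and the highest WT share in WT 3. All 8 granulosa markers passed the filter, with summed levels of 4489 to 9237 FPKM in KO libraries and 6281 to 12055 FPKM in WT libraries. All 7 oocyte markers and all 5 erythroid markers passed too. Their sums ran from 208 to 329 and from 473 to 3512 FPKM in KO libraries, and from 231 to 378 and from 613 to 4455 FPKM in WT libraries. No marker of any list examined was at 0 in all libraries. In each of the 3 lists KO 3 had the highest KO sum and WT 3 the lowest WT sum. Single markers could differ from their list: Inha made up most of the granulosa sum, at 3973 to 8032 FPKM in KO libraries and 5701 to 10808 FPKM in WT libraries, while Inhba was lowest of all in KO 3 (19.0 FPKM) and highest in KO 2 (77.0 FPKM). The oocyte marker Bmp15 was likewise lowest in KO 3 (2.97 FPKM) and highest in KO 2 (24.4 FPKM). Of the other lists, 3 of 4 theca, 6 of 7 stromal, 4 of 5 endothelial and 3 of 6 leukocyte markers passed the filter. Theca sums ran from 31.6 to 37.5 FPKM in KO libraries and from 19.3 to 56.7 FPKM in WT libraries. Stromal sums ran from 65.2 to 95.9 FPKM in KO libraries and from 47.7 to 102 FPKM in WT libraries. Here too KO 3 had the highest KO sum and WT 3 the lowest WT sum. Acta2 and Pdgfrb were highest in KO 3 among KO libraries, while Col1a1, Col1a2, Pdgfra, Dcn and Myh11 were lowest there. Leukocyte sums ran from 29.9 to 42.5 FPKM in KO libraries, with KO 1 highest, and from 29.6 to 45.8 FPKM in WT libraries. Endothelial sums went the other way from the first 3 lists, from 11.6 FPKM in KO 3 to 17.9 FPKM in KO 2. In WT libraries these sums ran from 5.89 FPKM in WT 2 to 14.8 FPKM in WT 3. The endothelial genes differed: Cdh5, Kdr and Pecam1 were lowest in KO 3 among KO libraries, while Eng and Tek were highest there. The part of these markers in the results was not tested.

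Taken as a whole, the replication genes held a steady share of the reads. They took 0.211%, 0.206% and 0.215% of the reads in KO 1 to 3, against 0.207%, 0.223% and 0.216% in WT 1 to 3. The groups overlapped in this share. In FPKM the members were less steady, with sums of 557, 520 and 699 in KO 1 to 3, against 690, 718 and 562 in WT 1 to 3. The sum over all genes was 326343, 292946 and 509742 FPKM in KO 1 to 3, against 497931, 460292 and 305059 FPKM in WT 1 to 3. Both sums were lower in KO 1, KO 2 and WT 3 than in the other libraries. The scaling total of the FPKM was above the recovered reads in KO 1, KO 2 and WT 3, at 1.118, 1.115 and 1.121 times. It was below them in KO 3, WT 1 and WT 2, at 0.904, 0.894 and 0.939 times. A higher total lowers every FPKM of its library, so these sums also carry the scaling. Recovered depth was 16392098 to 17020427 reads in KO libraries and 16609477 to 19465847 in WT libraries. A member drew 25 to 4527 reads per library, with the fewest for Fen1 in WT 1. Most members were of middling abundance: 23 averaged more than 10 FPKM over the 6 libraries and 9 averaged less than 5 FPKM. Pcna, the sliding clamp, led at a mean of 93.4 FPKM, followed by Mcm7 (40.4 FPKM), Gmnn (38.6 FPKM) and Gins4 (31.6 FPKM). The lowest were Fen1 (1.32 FPKM), Pole (1.74 FPKM), Orc1 (1.75 FPKM) and Gins3 (1.85 FPKM).

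No replication gene passed the test of KO against WT. Of 40 members, limma on log2(FPKM + 1) called 0 at an adjusted p under 0.05, where 0 of 12495 tested genes were called (0%). Adjusted p-values of the members ran from 0.993 to 0.999 by limma. At an unadjusted p under 0.05 it gave 0 members, beside 0.728% of all tested genes (91). On recovered reads, limma-voom called 0 members and 0 genes in all (0%), with 0 members and 75 genes at an unadjusted p under 0.05. The log2 fold change was positive in 14 members and negative in 26, with a median of -0.09, beside a median of -0.04 over all tested genes; rescaling each library to a sum of 1e6 turned these medians to 0.069 and 0.13. The 95% interval of a member reached a median of 0.62 to either side of its log2 fold change. The KO and WT values did not overlap in 3 of 40 members (7.50%), beside 3.53% of all tested genes. These were Rfc1, higher in every KO library, and Mcm5 and Cdc45, lower in every KO library.

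**Figure D1:**
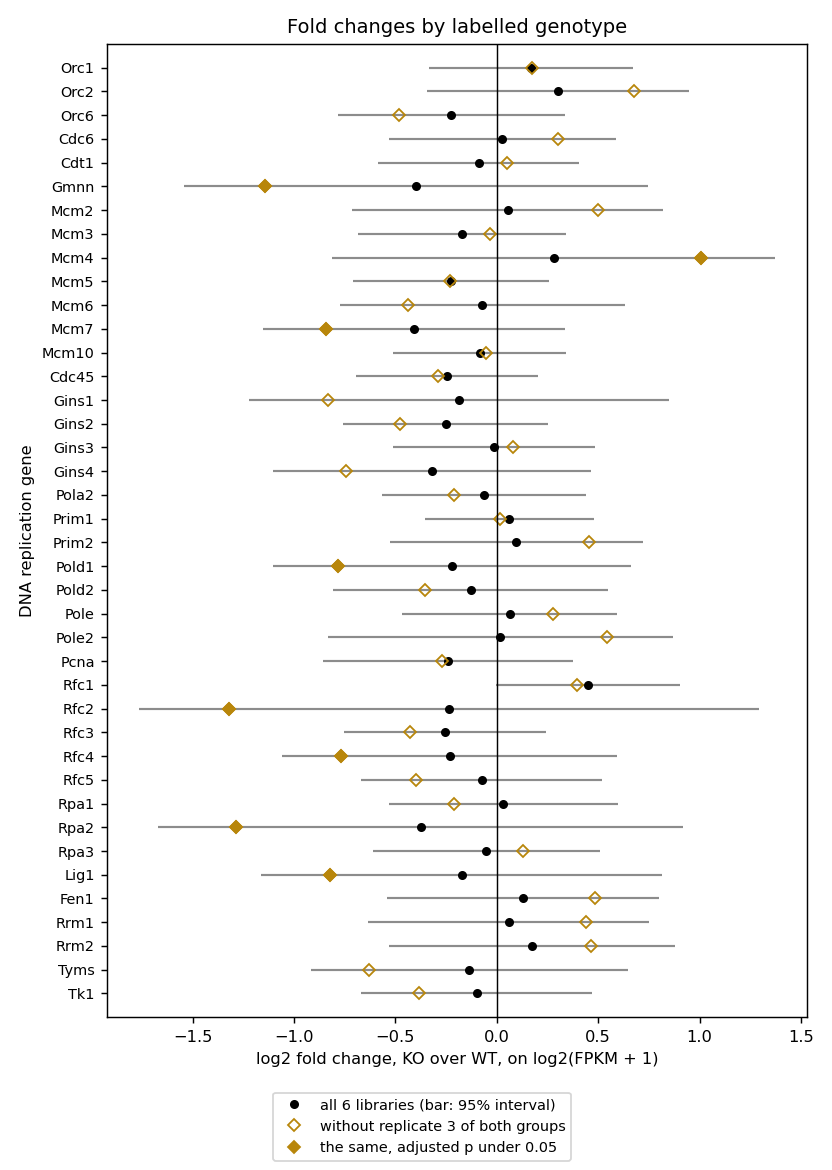
Log2 fold change of each replication gene, KO over WT, on the log2(FPKM + 1) scale, from limma. Black points and bars give the fit of all 6 libraries with its 95% interval, and every interval includes 0; open diamonds leave out replicate 3 of both groups, filled ones mark the 8 genes then under an adjusted p of 0.05.

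The result depended on replicate 3 of both groups. With those libraries left out, limma called 8 of 40 members (20%) at an adjusted p under 0.05, beside 27.6% of all tested genes. Called lower in KO were 7 of the 40 members, namely Gmnn, Mcm7, Pold1, Rfc2, Rfc4, Rpa2 and Lig1. Over all tested genes, 2042 of 12495 were called lower in KO (16.3%). Mcm4 alone, 1 of the 40 members, was called higher in KO, beside 1409 of 12495 tested genes (11.3%). This alternative sets KO 1 and KO 2 against WT 1 and WT 2, which lie on opposite sides of the first principal component, so genotype and that component cannot be told apart in it. The members' share called was below that of all genes.

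The members split among themselves across the labels, in a pattern that all tested genes shared. The library KO 3 held the highest value of 13 members and the lowest of 10, and KO 2 held the highest of 11 and the lowest of 17. The matching counts over all tested genes were not made, so these numbers only describe the members. KO 3 was above KO 2 in 22 members (55.0%) and below it in 18. WT 1 was above WT 3 in 23 (57.5%) and below it in 17. Over 12129 tested genes with a known GC content, the shares above were 51.9% and 49.6%. Over the 40 members, deviations from each gene's mean had a Pearson r of 0.82 between KO 1 and KO 2, and of -0.90 between KO 2 and KO 3. The r was 0.79 between KO 3 and WT 1 and 0.85 between KO 2 and WT 3. Over all 12495 tested genes these 4 values were 0.64, -0.87, 0.75 and 0.78. Genes are not independent replicates, and deviations within a gene sum to 0, so these values only describe the libraries. The median SD of log2(FPKM + 1) over the 6 libraries was 0.28 for the members and 0.38 for all tested genes. Of the 40 members, 13 varied more than the median tested gene.

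**Figure D2:**
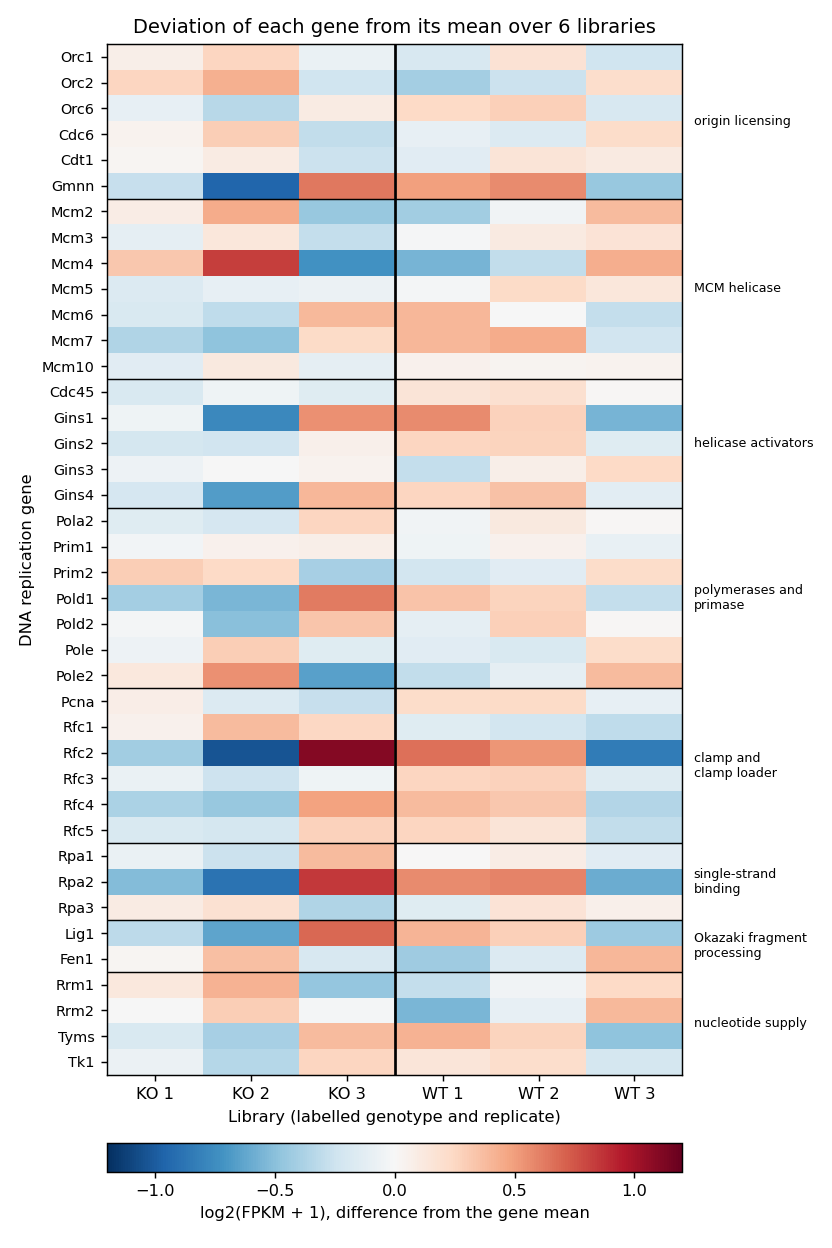
Deviation of log2(FPKM + 1) from each gene's mean over 6 libraries, with genes in rows by role and libraries in columns, KO left of WT. Gmnn, Rfc2, Rpa2 and Lig1 are high in KO 3, WT 1 and WT 2, whereas Mcm4, Pole2 and Rrm1 are high in KO 1, KO 2 and WT 3.

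Among the origin licensing genes, the FPKM of the inhibitor geminin exceeded that of its target Cdt1 in every library, to differing degrees, and was more variable. That order rests on gene length: in KO 2, Gmnn drew 479 reads over 1465 bases and Cdt1 697 reads over 3140. Gmnn (ENSMUSG00000006715), which encodes geminin, lies on the minus strand at chr13:24751845-24761923 in mm10. It stood at 29.2, 17.9 and 55.6 FPKM in KO 1 to 3, against 50.4, 53.0 and 25.7 FPKM in WT 1 to 3. KO 3 was thus the highest of all libraries and WT 3 lay below KO 1, and the groups overlapped. The log2 fold change was -0.40 ± 0.48 (SE), with adjusted p = 0.993 by limma. It was -0.81 without KO 3 and -0.023 without KO 2. Cdt1, the loader that geminin blocks, stood at 11.5, 12.1 and 9.29 FPKM in KO 1 to 3 and at 10.2, 12.7 and 12.3 FPKM in WT 1 to 3. The ratio of Gmnn to Cdt1 was 2.53, 1.47 and 5.99 in KO 1 to 3, against 4.94, 4.18 and 2.09 in WT 1 to 3, a 4.06-fold range. Gmnn alone spanned 3.11-fold over the libraries and Cdt1 1.37-fold.

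The origin recognition complex did not move as a unit. Orc2, the licensing gene with the smallest p, stood at 7.11, 8.08 and 4.75 FPKM in KO 1 to 3, against 4.10, 4.65 and 6.85 FPKM in WT 1 to 3. KO 3 lay among the WT values and WT 3 just below KO 1. Its log2 fold change was 0.30 ± 0.27 (SE, adjusted p = 0.993 by limma). Of its annotated exon bases 29.8% overlap Nif3l1 on the opposite strand, and the library kit does not mark strand. Orc6 ran the other way, from 10.2 to 14.1 FPKM in KO libraries and from 11.4 to 16.2 FPKM in WT libraries. Orc1, the subunit whose level follows the cell cycle in human cells, ran from 1.59 to 2.26 FPKM in KO libraries and from 1.32 to 2.09 FPKM in WT libraries. Cdc6, the ATPase that helps to load the ring, ran from 1.91 to 3.41 FPKM in KO libraries and from 2.19 to 3.19 FPKM in WT libraries.

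The 6 subunits of the MCM ring, which assemble in equal number, were not equally abundant as RNA, and their proportions differed between libraries. Mcm7 (ENSMUSG00000029730, minus strand, chr5:138164583-138172422 in mm10, 15 exon blocks in GENCODE M21) was the most abundant subunit in every library. It stood at 30.3, 27.8 and 45.9 FPKM in KO 1 to 3, against 51.9, 53.6 and 33.3 FPKM in WT 1 to 3. It had the lowest fold change of all members, -0.41 ± 0.31 on the log2 scale (SE, adjusted p = 0.993 by limma), and KO 3 exceeded WT 3. Mcm4 (ENSMUSG00000022673, minus strand, chr16:15623897-15637400) showed the opposite order. It stood at 12.6, 18.3 and 5.57 FPKM in KO 1 to 3, against 6.36, 7.83 and 13.7 FPKM in WT 1 to 3. Mcm4 drew 1201 reads in KO 2 and 308 in KO 3 at similar depth, with exact Poisson 95% intervals of 1134 to 1271 and 275 to 344 reads. The ratio of Mcm7 to Mcm4 was 2.41, 1.52 and 8.24 in KO 1 to 3, against 8.16, 6.84 and 2.42 in WT 1 to 3.

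Mcm2 and Mcm6 formed a second opposed pair. Mcm2 stood at 11.0, 14.3 and 7.22 FPKM in KO 1 to 3, against 7.43, 9.93 and 13.6 FPKM in WT 1 to 3. Mcm6 stood at 22.8, 20.9 and 34.3 FPKM in KO 1 to 3, against 34.6, 25.9 and 21.2 FPKM in WT 1 to 3. KO 3 was the lowest library for Mcm2 and nearly the highest for Mcm6. Mcm3 and Mcm5 kept close to each other, with a ratio of Mcm5 to Mcm3 between 1.02 and 1.41 over the 6 libraries. Mcm5 stood at 24.0, 25.1 and 25.5 FPKM in KO 1 to 3, against 26.4, 31.8 and 29.7 FPKM in WT 1 to 3. All 3 KO values were below all WT values, but the log2 fold change of -0.22 ± 0.20 (SE) did not pass, with adjusted p = 0.993 by limma. Mcm10, a scaffold that joins the helicase to polymerase alpha and is no part of the ring, was steadier still at 3.50 to 4.35 FPKM in KO libraries and 4.05 to 4.12 FPKM in WT libraries. The summed level of Mcm2 to Mcm7 was 121, 131 and 137 FPKM in KO 1 to 3, against 149, 153 and 137 FPKM in WT 1 to 3.

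**Figure D3:**
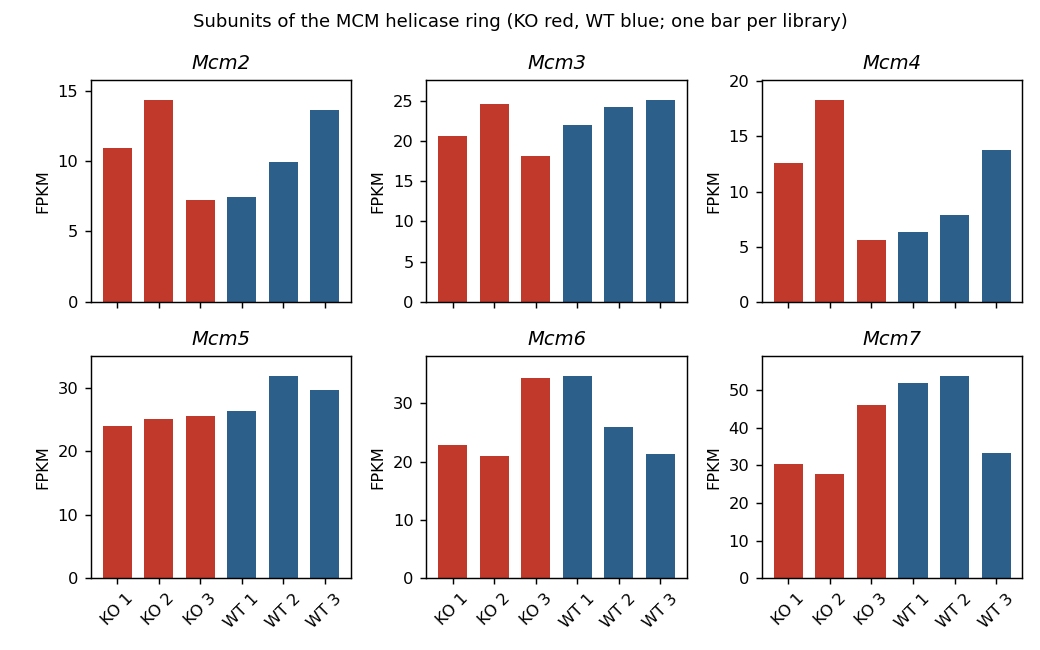
FPKM of the 6 subunits of the MCM ring, 1 bar per library, KO (red) left of WT (blue), each panel with its own axis from 0. Mcm2 and Mcm4 are lowest in KO 3, at 7.22 and 5.57 FPKM, where Mcm6 and Mcm7 stand at 34.3 and 45.9 FPKM.

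The upstream sequences of MCM genes are shown because subunits of a single ring differed in their order over the libraries, and because E2F factors are known regulators of this family. RefSeq promoter windows of build GRCm38.p6 were found for 32 of the 40 members. None was found for Gmnn, Mcm4, Gins1, Gins2, Gins4, Prim2, Pole and Rfc2, so these were not searched. The 250 bases before each start were searched on both strands for TTTGGCGC, TTTCCCGC, TTTCGCGC and TTTGCCGC, variants of the E2F word; matches may overlap each other. Of the 32 members, 7 held at least 1 word (21.9%), beside 2.16% of 27025 genes with a window. The 7 were Orc1, Cdc6, Mcm5, Mcm6, Mcm7, Gins3 and Rfc3. CCAAT on either strand was found in 21 of the 32 members (65.6%), beside 37.5% of all genes. These windows are compared without regard to base composition, and a match describes letters only. Whether the words bear on the order of the subunits over the libraries was not tested. Sequences are given 5′ to 3′ on the strand of the gene, and capitals mark E2F words. The Mcm5 window is the plus strand of chr8:75109259-75109508, where 2 words overlap. The Mcm6 window is the minus strand of chr1:128359706-128359955, with 3 words, of which 2 overlap. The windows of Mcm2 (minus strand, chr6:88898781-88899030) and Mcm3 (minus strand, chr1:20820313-20820562) held none.
Mcm5: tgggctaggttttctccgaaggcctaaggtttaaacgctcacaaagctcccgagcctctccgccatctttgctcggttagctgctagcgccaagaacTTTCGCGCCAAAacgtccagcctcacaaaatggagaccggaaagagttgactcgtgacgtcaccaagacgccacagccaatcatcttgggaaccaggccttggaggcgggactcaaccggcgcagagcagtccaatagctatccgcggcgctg
Mcm6: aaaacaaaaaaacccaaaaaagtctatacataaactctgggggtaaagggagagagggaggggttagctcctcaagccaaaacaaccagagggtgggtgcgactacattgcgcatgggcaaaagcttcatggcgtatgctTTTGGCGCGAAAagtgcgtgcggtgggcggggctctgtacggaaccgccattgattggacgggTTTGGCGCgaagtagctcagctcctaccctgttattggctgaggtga
Mcm2: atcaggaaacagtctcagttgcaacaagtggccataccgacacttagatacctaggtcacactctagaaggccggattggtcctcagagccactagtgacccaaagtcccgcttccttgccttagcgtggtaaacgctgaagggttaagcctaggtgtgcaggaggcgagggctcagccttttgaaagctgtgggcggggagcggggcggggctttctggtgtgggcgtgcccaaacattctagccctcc
Mcm3: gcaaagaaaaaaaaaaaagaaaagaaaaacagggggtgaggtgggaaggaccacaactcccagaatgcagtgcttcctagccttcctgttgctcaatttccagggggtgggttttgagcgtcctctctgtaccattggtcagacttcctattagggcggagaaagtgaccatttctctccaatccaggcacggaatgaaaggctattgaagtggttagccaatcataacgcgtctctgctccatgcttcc

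Among the helicase activators, Cdc45, which binds the side of the MCM ring, was level within each group. It stood at 13.3, 14.6 and 13.7 FPKM in KO 1 to 3, against 17.0, 17.5 and 15.4 FPKM in WT 1 to 3. The groups did not overlap, at 13.9 ± 0.707 FPKM in KO and 16.6 ± 1.14 FPKM in WT libraries (SD, n = 3 each). The log2 fold change was -0.25 ± 0.19 (SE), with adjusted p = 0.993 by limma. Gins4, the most abundant of the 4 GINS subunits, stood at 26.4, 18.8 and 40.5 FPKM in KO 1 to 3, against 36.8, 39.2 and 27.8 FPKM in WT 1 to 3. Gins1 was also lowest in KO 2 and ran from 7.04 FPKM in KO 2 to 19.1 FPKM in KO 3 and from 8.31 FPKM in WT 3 to 19.4 FPKM in WT 1. Gins3 was the least abundant GINS gene in each library, at 1.72 to 1.92 FPKM in KO libraries and 1.32 to 2.35 FPKM in WT libraries. The ratio of Gins4 to Gins3 was 15.4, 10.4 and 21.1 in KO 1 to 3, against 28.0, 19.9 and 11.8 in WT 1 to 3. Gins2 ran from 4.42 to 5.61 FPKM in KO libraries and from 4.75 to 6.61 FPKM in WT libraries, and shares 67.3% of its annotated exon bases with Gse1 on the opposite strand.

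The polymerase and primase genes varied in different orders over the libraries. Pold1, the catalytic subunit of the lagging-strand polymerase delta, stood at 11.1, 9.997 and 23.7 FPKM in KO 1 to 3, against 19.4, 18.4 and 12.2 FPKM in WT 1 to 3. Its accessory subunit Pold2 had the highest mean of the polymerase and primase members. It stood at 28.7, 20.4 and 36.9 FPKM in KO 1 to 3, against 27.1, 35.8 and 29.5 FPKM in WT 1 to 3. KO 3 was the highest and KO 2 the lowest library for both genes. Both members that encode subunits of the leading-strand polymerase epsilon were high in KO 2 and WT 3. Pole, its catalytic subunit, stood at 1.61, 2.34 and 1.46 FPKM in KO 1 to 3, against 1.47, 1.39 and 2.17 FPKM in WT 1 to 3. Pole2 stood at 2.32, 3.44 and 0.924 FPKM in KO 1 to 3, against 1.47, 1.81 and 2.94 FPKM in WT 1 to 3. The further epsilon subunits Pole3 and Pole4, which are not members, ran the other way. Pole3 stood at 30.8, 23.0 and 45.5 FPKM in KO 1 to 3, against 47.3, 42.2 and 27.0 FPKM in WT 1 to 3. Pole4 stood at 20.2, 14.9 and 26.5 FPKM in KO 1 to 3, against 27.9, 25.1 and 18.7 FPKM in WT 1 to 3. The ratio of Pold1 to Pole was 6.94, 4.27 and 16.3 in KO 1 to 3, against 13.1, 13.2 and 5.64 in WT 1 to 3.

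The primase genes, whose products start each new strand with an RNA primer, included the steadiest member of all. Prim1, the catalytic subunit, stood at 4.91, 5.29 and 5.36 FPKM in KO 1 to 3, against 4.82, 5.26 and 4.69 FPKM in WT 1 to 3. It spanned 1.14-fold over the 6 libraries. Prim2, its partner, stood at 3.06, 2.91 and 1.51 FPKM in KO 1 to 3, against 1.83, 2.003 and 2.84 FPKM in WT 1 to 3. Pola2, the accessory subunit of the polymerase that extends the primer, ran from 9.41 to 13.3 FPKM in KO libraries and from 10.6 to 11.99 FPKM in WT libraries. None of the 7 polymerase and primase genes separated the groups, and log2 fold changes ran from -0.22 for Pold1 to 0.10 for Prim2.

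The clamp loader held both the most variable member and the gene nearest to a difference by label. Rfc2 (ENSMUSG00000023104, plus strand, chr5:134581366-134601805 in mm10) stood at 10.5, 6.50 and 32.0 FPKM in KO 1 to 3, against 23.3, 21.2 and 7.61 FPKM in WT 1 to 3. The range from KO 2 to KO 3 was 4.92-fold, on 749 and 3102 reads. Its log2 fold change was -0.24 ± 0.64 (SE, adjusted p = 0.993 by limma). Rfc1 (ENSMUSG00000029191, minus strand, chr5:65261850-65335670), the large subunit that opens the clamp, did not follow that order. It stood at 7.51, 9.66 and 8.74 FPKM in KO 1 to 3, against 6.41, 6.06 and 5.65 FPKM in WT 1 to 3, so every KO library exceeded every WT library. Means were 8.64 ± 1.08 and 6.04 ± 0.382 FPKM in KO and WT libraries (SD, n = 3 each). The log2 fold change of 0.45 ± 0.19 (SE) was the highest of all members, with a 95% interval of -0.0048 to 0.90 and an unadjusted p = 0.0519 by limma. The adjusted p = 0.993 by limma, so Rfc1 was not called.

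The other small RFC subunits sided with Rfc2 to different degrees. Rfc4 ran from 10.2 FPKM in KO 2 to 20.6 FPKM in KO 3 and from 11.1 FPKM in WT 3 to 19.0 FPKM in WT 1. Rfc5 ran from 5.74 to 8.50 FPKM in KO libraries and from 5.37 to 8.34 FPKM in WT libraries. Rfc3 was nearly level in KO libraries, at 6.63 to 7.75 FPKM, and ran from 7.19 to 10.03 FPKM in WT libraries. The ratio of Rfc2 to Rfc1 was 1.40, 0.673 and 3.66 in KO 1 to 3, against 3.64, 3.49 and 1.35 in WT 1 to 3. Of the annotated exon bases, 12.7% of Rfc4 overlap the abundant Eif4a2 and 15.1% of Rfc2 overlap Lat2, each on the opposite strand. Pcna itself stood at 97.6, 82.7 and 76.4 FPKM in KO 1 to 3, against 108, 109 and 86.4 FPKM in WT 1 to 3. Its log2 fold change was -0.24 ± 0.26 (SE, adjusted p = 0.993 by limma), and WT 3 lay below KO 1. The near-identical copy Pcna-ps2 was listed with 46 to 98 reads per KO library and 74 to 82 per WT library, beside 2824 to 4381 and 3859 to 4527 reads of Pcna, and reads may be split between them.

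**Figure D4:**
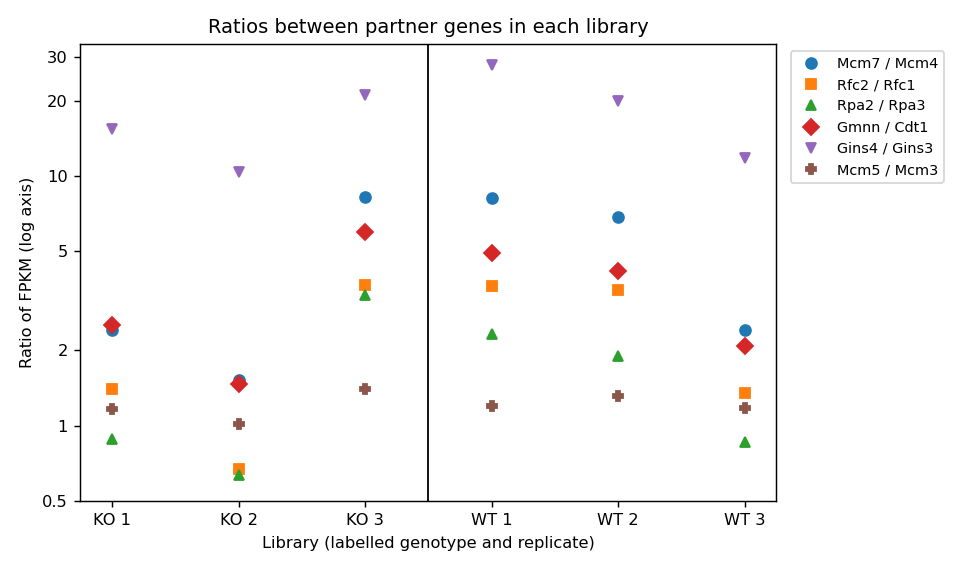
Ratio of FPKM between partner genes in each library, on a log axis, KO left of WT, 1 point per library. The ratios of Mcm7 to Mcm4, Rfc2 to Rfc1, Rpa2 to Rpa3 and Gmnn to Cdt1 are high in KO 3, WT 1 and WT 2, while Mcm5 to Mcm3 stays between 1.02 and 1.41.

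The RPA trimer, which coats single-stranded DNA, also differed in its proportions between libraries. Rpa2 (ENSMUSG00000028884, plus strand, chr4:132768332-132778752 in mm10) stood at 14.6, 11.1 and 39.4 FPKM in KO 1 to 3, against 32.3, 32.9 and 13.8 FPKM in WT 1 to 3. Its log2 fold change was -0.38 ± 0.54 (SE, adjusted p = 0.993 by limma). It was -0.89 without KO 3 and -0.026 without KO 2. Rpa3, the smallest subunit, stood at 16.5, 17.6 and 11.8 FPKM in KO 1 to 3, against 13.8, 17.3 and 16.1 FPKM in WT 1 to 3. The ratio of Rpa2 to Rpa3 was 0.887, 0.633 and 3.34 in KO 1 to 3, against 2.34, 1.89 and 0.862 in WT 1 to 3. Rpa3 had the highest FPKM of the trimer in KO 1, KO 2 and WT 3, and Rpa2 in the other libraries. That rank rests on gene length: in KO 1, Rpa1 drew 1212 reads over 5578 bases and Rpa3 350 reads over 1136. Rpa1, the largest subunit, ran from 10.1 to 16.4 FPKM in KO libraries and from 11.1 to 13.2 FPKM in WT libraries.

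Both genes of Okazaki fragment processing overlapped between the groups. Lig1, the ligase that seals the fragments, stood at 18.5, 14.6 and 37.9 FPKM in KO 1 to 3, against 31.2, 28.5 and 16.9 FPKM in WT 1 to 3. Its log2 fold change was -0.17 ± 0.41 (SE, adjusted p = 0.993 by limma). Fen1, the nuclease that trims their flaps, was listed at 1.30, 1.92 and 0.992 FPKM in KO 1 to 3, against 0.695, 1.03 and 1.99 FPKM in WT 1 to 3. In WT 1 this was 25 reads, for which the exact Poisson 95% interval spans 0.450 to 1.03 FPKM. The level of Fen1 is uncertain, since 78.8% of its annotated exon bases overlap Gm10143, listed at 0.0195 to 0.197 FPKM over the 6 libraries, and 5.37% overlap Tmem258, at 28.6 to 73.9 FPKM, both on the opposite strand. How the authors counted shared reads is not given in the sources used here.

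Genes of nucleotide supply split by enzyme. Rrm2, the small subunit of ribonucleotide reductase that limits its activity, stood at 26.5, 32.9 and 26.2 FPKM in KO 1 to 3, against 17.9, 24.9 and 35.2 FPKM in WT 1 to 3. Its log2 fold change was 0.17 ± 0.30 (SE, adjusted p = 0.993 by limma). Rrm1, the large subunit, ran from 5.81 FPKM in KO 3 to 11.6 FPKM in KO 2 and from 6.69 FPKM in WT 1 to 10.1 FPKM in WT 3. Tyms, which makes thymidylate, ran oppositely, from 5.21 FPKM in KO 2 to 9.64 FPKM in KO 3 and from 4.87 FPKM in WT 3 to 9.91 FPKM in WT 1. Tk1, which salvages thymidine, ran from 3.27 FPKM in KO 2 to 5.50 FPKM in KO 3 and from 3.68 FPKM in WT 3 to 5.27 FPKM in WT 2.

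Properties that the choice of genes did not use were set beside this split. The difference of KO 3 minus KO 2 in log2(FPKM + 1) ran from -1.55 to 2.14 over the members, and exceeded 1 in size in 9 of 40 (22.5%), beside 37.9% of 12129 tested genes with a known GC content. Across the members this difference had a Pearson r of -0.23 with log2 gene length and of 0.35 with transcript GC content. Across the 12129 genes the values were -0.39 and 0.35. For WT 1 minus WT 3 the values were -0.13 and 0.17 across the members, and -0.38 and 0.20 across all. Members lie on 13 chromosomes, and 39 of the 40 have the same coordinates in GENCODE M21.

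Other genes of the replication pathway and its control were taken from lists that the members are not part of. Of 27 tested further replication factors, 0 passed the test in either direction, 16 were positive and 11 negative, with a median of 0.03 on the log2 scale. Dtl, which marks Cdt1 for destruction, stood at 1.95, 2.90 and 1.37 FPKM in KO 1 to 3, against 1.28, 1.46 and 1.67 FPKM in WT 1 to 3. Clspn, a mediator of the replication checkpoint, stood at 2.15, 3.27 and 1.14 FPKM in KO 1 to 3, against 0.947, 1.16 and 2.18 FPKM in WT 1 to 3. Of 17 tested genes of E2F control and S phase entry, 0 passed in either direction, 13 were positive and 4 negative, with a median of 0.06. Ccne2, an S phase cyclin, stood at 3.00, 4.38 and 1.88 FPKM in KO 1 to 3, against 1.52, 1.59 and 2.53 FPKM in WT 1 to 3. Rb1, the repressor of E2F, stood at 4.05, 6.88 and 2.52 FPKM in KO 1 to 3, against 2.30, 2.36 and 4.11 FPKM in WT 1 to 3. For Dtl, Clspn, Ccne2 and Rb1, KO 2 was the highest library, and KO 3 was the lowest KO library. These genes were named by their p and do not stand for their lists. Dut, Dctpp1 and E2f2 of the same lists had the opposite order, with KO 2 lowest and KO 3 the highest KO library. Dut, for example, stood at 29.3, 18.9 and 51.9 FPKM in KO 1 to 3, against 52.2, 42.3 and 23.1 FPKM in WT 1 to 3.

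Genes that act beside or after replication gave no call either. Of 5 tested checkpoint genes, 0 passed, 4 were positive and 1 negative, with a median of 0.11 on the log2 scale. Wee1, which restrains entry into mitosis, stood at 24.5, 24.4 and 6.97 FPKM in KO 1 to 3, against 7.01, 13.2 and 14.2 FPKM in WT 1 to 3. Rad1, a subunit of the checkpoint clamp, ran from 1.17 to 1.23 FPKM in KO libraries and from 1.27 to 1.60 FPKM in WT libraries. Of 8 tested chromatin assembly genes, 0 passed, 3 were positive and 5 negative, with a median of -0.03. Asf1a, a histone chaperone, ran from 6.96 to 7.74 FPKM in KO libraries and from 6.94 to 9.27 FPKM in WT libraries. Nasp, another histone chaperone, ran from 15.9 to 28.0 FPKM in KO libraries and from 13.2 to 30.8 FPKM in WT libraries. Of 15 tested genes of G2/M and mitosis, 0 passed, 5 were positive and 10 negative, with a median of -0.11. Aurka, a spindle kinase, stood at 18.9, 17.9 and 23.8 FPKM in KO 1 to 3, against 24.7, 37.1 and 25.0 FPKM in WT 1 to 3. Mki67, which coats mitotic chromosomes, stood at 10.6, 17.6 and 13.0 FPKM in KO 1 to 3, against 11.3, 10.1 and 8.32 FPKM in WT 1 to 3. Adjusted p was 0.993 by limma for each gene named from these 5 lists. With replicate 3 of both groups left out, 14 of the 72 tested genes of the 5 lists were called (19.4%), beside 27.6% of all tested genes.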

How the data were processed

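The deposited values are FPKM, per the file headers, in a separate table for each library. The submitters' processing notes name HISAT2 2.0.5 and mm10. How reads were assigned to genes is not given in the sources used here. The kit was TruSeq RNA, which does not mark strand, per the labels' protocols. FPKM multiplied by gene length was a whole multiple of a fixed step in 100% of values of every library (tolerance 0.01 reads), which gave back the read numbers. By chi-square over genes holding 20 or more reads, no pair of libraries within a group agreed within sampling noise.

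Groups came from sample titles. The members and gene lists were chosen with earlier results of these data known. limma 3.58.1 in R 4.3.3 was fitted to log2(FPKM + 1) of genes whose FPKM exceeded 1 in 3 or more libraries, with a prior variance trend and genotype as the only term; this scale understates changes of low genes. P-values were two-sided and Benjamini-Hochberg adjusted over all tested genes, at a threshold of 0.05. Gm12840 fell under the filter. The main fit was also run on simulated counts whose libraries differed only by depth, planted changes and random spread. Those counts lack the first principal component seen here, so that run cannot tell power or error in these data. Named members were, per role, the most abundant and the one with the smallest p, plus the extremes of fold change and of spread; those with values beyond them were chosen after their values were seen, as were the ratios. Of each further list the 2 genes with the smallest p were named. Pole3, Pole4, Dut, Dctpp1 and E2f2 were named after their values were seen. Alternatives were other pseudocounts, filters and scalings, limma-voom with the authors' scaling totals, a replicate block, protein-coding genes, a length correction by local regression, and libraries left out. Promoter windows are RefSeq's, build GRCm38.p6. Intervals on reads cover counting error only. Figures were drawn with matplotlib 3.10.9.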

Additional observations from a re-analysis of the deposited data

How the results depend on the processing

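limma called 0 genes and 0 members under every alternative run except 1. That exception, replicate 3 of both groups left out, gave 3451 genes and 8 members, with a median log2 fold change of -0.22 over the members. The members' median was 0.069 after rescaling each library to a sum of 1e6, where the median of all tested genes was 0.13. Dropping 1 library at a time gave medians of -0.18 to -0.024. With the replicate block the median was -0.087, and 0 genes and 0 members were called. Correlations between the deviations of libraries with the same number were -0.42, -0.67 and -0.89, and the own number gave the best correlation for 0 of 6 libraries. Libraries with the same number lie on opposite sides of the first principal component, so these correlations cannot tell whether samples were paired. The labels name no pairing. The signs of 17 members held under every alternative run, but the sizes of many did not. Without KO 3 and without KO 2 the fold changes were -0.60 and -0.063 for Gins4, -0.59 and -0.0033 for Pold1, and -0.54 and -0.064 for Rfc4. Rfc1 ran from 0.37 to 0.53, Mcm7 from -0.63 to -0.27, Mcm5 from -0.29 to -0.17 and Cdc45 from -0.30 to -0.21. The other 23 members took the opposite sign at least once. None of these 23 was called in the fit of all 6 libraries; the cause was not tested. On the rescaled values, Cdt1 turned to 0.075, Mcm6 to 0.10, Mcm10 to 0.063, Gins3 to 0.12, Pola2 to 0.10, Pold2 to 0.038, Rfc5 to 0.084, Rpa3 to 0.12, Tyms to 0.021 and Tk1 to 0.045. By library totals, Mcm6 turned to 0.013, Gins3 to 0.034, Pola2 to 0.015, Rfc5 to 0.0014 and Rpa3 to 0.031. After the length correction, Cdc6 turned to -0.0075, Mcm2 to -0.045, Gins1 to 0.011, Gins3 to 0.093, Pola2 to 0.032, Pold2 to 0.042, Pole to -0.14, Rpa1 to -0.017, Rpa3 to 0.16 and Rrm1 to -0.14. Without replicate 3 of both groups, Cdt1 turned to 0.050, Gins3 to 0.078, Rpa1 to -0.21 and Rpa3 to 0.13. With a pseudocount of 0.1, Pole2 turned to -0.019, and by limma-voom Pole2 turned to -0.029. Dropping 1 library at a time gave -0.12 to 0.18 for Cdc6, -0.18 to 0.017 for Cdt1, -0.16 to 0.29 for Mcm2, -0.062 to 0.71 for Mcm4, -0.28 to 0.11 for Mcm6 and -0.51 to 0.15 for Gins1. It gave -0.16 to 0.10 for Gins3, -0.21 to 0.021 for Pola2, -0.028 to 0.32 for Prim2, -0.33 to 0.088 for Pold2, -0.071 to 0.19 for Pole and -0.25 to 0.35 for Pole2. The range was -0.84 to 0.22 for Rfc2, -0.24 to 0.035 for Rfc5, -0.15 to 0.17 for Rpa1, -0.16 to 0.11 for Rpa3, -0.56 to 0.10 for Lig1 and -0.051 to 0.36 for Fen1. Among the remaining genes it was -0.14 to 0.30 for Rrm1, -0.059 to 0.41 for Rrm2, -0.41 to 0.039 for Tyms and -0.25 to 0.048 for Tk1. Gm12840, at -0.03, turned to 0.086 on the rescaled values, 0.0047 by library totals and 0.035 by limma-voom. Its range was -0.27 to 0.28 with 1 library dropped. It had no value with the filter at a mean FPKM over 5 or among protein-coding genes only.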
